A study of Mus musculus with 4 samples.

Results

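The genes described here are 6 regulators of tooth eruption and bone resorption: Pthlh, which encodes parathyroid hormone-related protein (PTHrP), its receptor gene Pth1r, Tnfsf11 (RANKL), Tnfrsf11b (osteoprotegerin), Csf1 and Il34. They were chosen by symbol, and all 6 were found among the 23107 genes of the deposited tables. They were followed in tdTomato-positive cells that had been sorted from dental follicles of mouse mandibular molars at postnatal day 8, after tamoxifen at postnatal day 3. The dental follicle is the connective tissue sheath around an unerupted tooth. In the cHet group (genotype Ptch1(+/-) in the labels, 2 libraries) 1 copy of Ptch1, the hedgehog receptor gene, was conditionally targeted, and in the cKO group (Ptch1(-/-), 2 libraries) both copies were. The labels call the sorted cells PTHrP-positive in both groups. They do not name the recombinase driver or the reporter allele, nor whether animals were pooled for a library or whether the libraries of a group came from separate animals. P-values therefore measure the spread between libraries, and some of that spread may be technical. The comparison asks how these genes stood when both copies rather than 1 were targeted.

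PTHrP is a secreted ligand that acts on the receptor encoded by Pth1r, which signals mainly through the G protein encoded by Gnas, cyclic AMP and protein kinase A. RANKL on stromal and bone-forming cells binds its receptor RANK (Tnfrsf11a) on osteoclast precursors and makes them form osteoclasts, while osteoprotegerin is a soluble decoy receptor that blocks RANKL. CSF1 and IL-34 are the ligands of the receptor Csf1r, which those precursors need to survive. A tooth erupts through bone that osteoclasts remove, and the dental follicle is known as a source of these signals.

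The stretch upstream of a gene's start is shown for Pthlh, whose product names the sorted cells in the labels, and for Tnfsf11, the osteoclast-inducing ligand. These are the sequences beside which their transcript levels can be read. Each is the 250 bases before the RefSeq start (GRCm38.p6), written 5′ to 3′ on the minus strand, where both genes lie. Capitals mark matches, on either strand, to the GC box GGGCGG or to the TATA box TATAAA, which do not overlap here. RefSeq and GENCODE place the start of Pthlh differently, so that its stretch lies in large part inside the GENCODE gene interval given with its values. The Pthlh stretch is chr6:147264014-147264263 and the Tnfsf11 stretch chr14:78308044-78308293.
Pthlh: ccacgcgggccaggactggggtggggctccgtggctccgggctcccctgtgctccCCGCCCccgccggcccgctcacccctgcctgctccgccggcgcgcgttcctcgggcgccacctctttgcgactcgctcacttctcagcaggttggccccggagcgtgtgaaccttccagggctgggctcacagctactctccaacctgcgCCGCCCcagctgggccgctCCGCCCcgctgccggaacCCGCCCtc
Tnfsf11: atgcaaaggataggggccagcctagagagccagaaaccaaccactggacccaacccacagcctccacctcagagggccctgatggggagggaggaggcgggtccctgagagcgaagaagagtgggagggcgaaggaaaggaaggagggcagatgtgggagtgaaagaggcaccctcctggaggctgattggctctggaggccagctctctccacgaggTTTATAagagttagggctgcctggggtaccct
The Pthlh stretch was 75.2% G and C and held 4 GC boxes and 0 TATA boxes. The Tnfsf11 stretch was 60.4% G and C and held 0 GC boxes and 1 TATA box. A GC box was present in 32.7% and a TATA box in 12.4% of the 32851 stretches of this length in the RefSeq table. The Gli binding consensus GACCACCCA, present in 0.225% of all stretches, and the cyclic AMP response element TGACGTCA, present in 1.55%, had 0 matches in either. A match is only a string of letters, and its absence says nothing of a factor's binding elsewhere. RefSeq stretches were matched for 4 of the 6 genes, Pthlh, Pth1r, Tnfsf11 and Csf1.

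Values below are scaled counts, the authors' gene counts divided by 1 factor per library, or FPKM, which is also divided by transcript length. Libraries are named as in the columns of the tables, cHet_0 and cHet_1 against cKO_0 and cKO_1. Log2 fold changes set cKO over cHet after 3 was added to each scaled count, and were tested with limma and adjusted over the 14297 genes tested (Benjamini-Hochberg, threshold 0.05). Scaled totals ran from 69361760 to 71228342 per library. Library cHet_1 stood apart: its median gene had a scaled count of 21.98, against 238 to 278 in the other libraries, and 34 genes with 100 or more in each of the others were at 0 there. Ptch1 itself was listed at 12867 and 5438 in cHet against 22420 and 23341 in cKO; this value covers the whole transcript and does not show whether an exon was removed. Over the whole table limma made 0 calls in either direction (0% higher, 0% lower), while 220 genes (1.54%) with higher and 213 (1.49%) with lower values stood at an unadjusted p under 0.05. Without cHet_0 it called 1061 higher and 78 lower, with the spread then taken from the cKO libraries alone.

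The genes of the PTHrP axis and Csf1 were abundant and lay at overlapping levels in both genotypes, RANKL was scarce with overlapping levels, and Il34 was nearly missing. Osteoprotegerin was the exception. Both cKO values of its gene lay under both cHet values, with a log2 fold change of -3.14 (SE 1.27) that did not pass the threshold over all genes. Of the 5 members that could be tested, 2 had higher and 3 lower values in cKO (56.3% and 43.7% of all genes tested), 0 were called, and 1 had groups that did not overlap. Over all genes tested, groups did not overlap in the lower direction for 14.2% and in either direction for 32.2%.

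**Figure D1:**
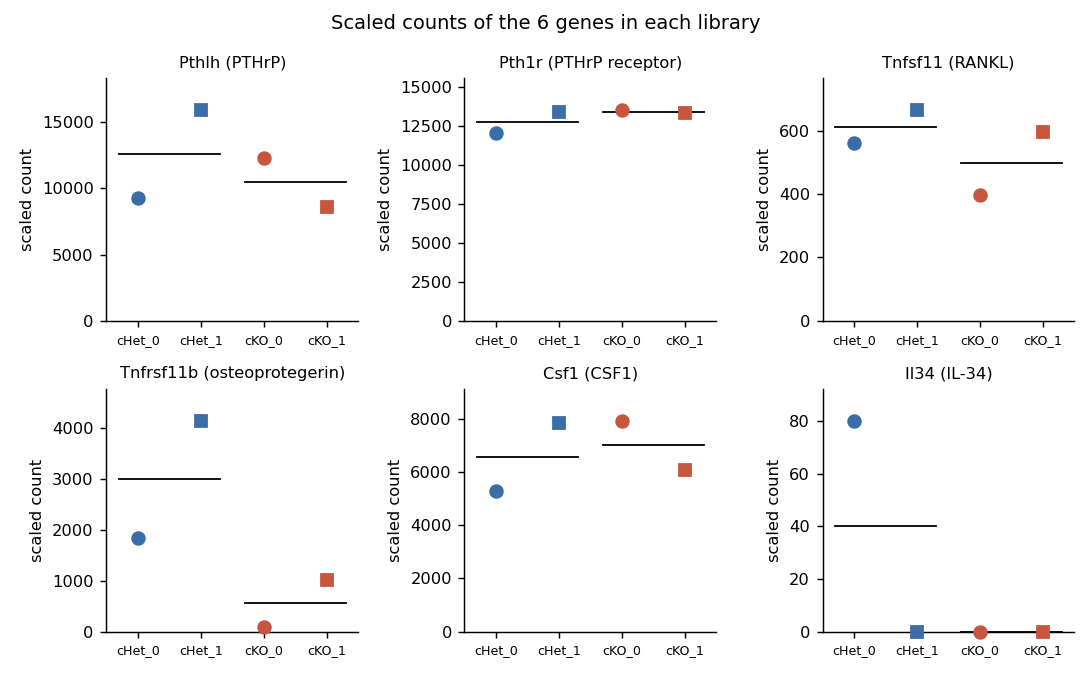
Scaled counts of the 6 genes (vertical axes, starting at 0, a different scale in each panel) in the 4 libraries (horizontal axes); blue points are cHet, red points cKO, and black lines the group means. For Tnfrsf11b both cKO points, at 92.7 and 1021, lie below both cHet points, at 1839.7 and 4149, while Il34 is above 0 in cHet_0 only.

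The ligand gene Pthlh (chromosome 6, 147252101 to 147264183, mm10, minus strand) had 9253 and 15879 scaled counts in cHet_0 and cHet_1, against 12267 and 8613 in cKO_0 and cKO_1. The highest library was a cHet and the lowest a cKO, with the other cHet and cKO libraries in between, so that the groups overlapped. Its log2 fold change was -0.24 (SE 0.34, 95% interval -1.03 to 0.55, adjusted p = 0.937 in limma). The direction was not stable: it was 0.15 without cHet_1 and 0.02 without cKO_1. The labels tie the sorted mark to PTHrP but do not name the reporter allele, so the gate may or may not bear on the level of Pthlh. The part of the gate was not tested. In FPKM, Pthlh stood at 99.1 and 112 in cHet against 133 and 62.9 in cKO, which placed it between rank 409 and rank 946 from the top of the 23107 genes.

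The receptor gene Pth1r (chromosome 9, 110722085 to 110747145, minus strand) varied least of the 5 genes tested. It was listed at 12053 and 13416 in cHet against 13511 and 13297 in cKO, a range of 1.12-fold over the 4 libraries. Its log2 fold change was 0.08 (SE 0.25, adjusted p = 0.982 in limma), with a 95% interval from -0.49 to 0.65. The gene overlaps Myl3 on the other strand, which was listed at 0 in every library. In FPKM, Pth1r stood at 81.4 and 113 in cHet against 94.7 and 107 in cKO. Transcripts of the ligand and of its receptor were thus both among the more abundant ones. In FPKM, Pthlh was above Pth1r in cHet_0 and cKO_0 and below it in cHet_1 and cKO_1. This order went with the column number, as did the conversion of both genes from scaled counts to FPKM. In scaled counts Pthlh was above Pth1r in cHet_1 only.

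Of the pathway behind the receptor, in a list that includes Pth1r itself, 38 of 39 genes could be tested, 22 with higher and 16 with lower values in cKO. Their median log2 fold change was 0.08, against 0.12 over all genes tested, and 0 were called in either direction. Gnas, the stimulatory G protein gene, was very abundant at 132341 and 124827 in cHet against 120239 and 115823 in cKO. The lowest p in this list belonged to Arrb1, a beta-arrestin that helps to end receptor signalling, at 4831 and 6469 in cHet against 1395 and 3192 in cKO (log2 fold change -1.40, SE 0.50). The cyclic AMP-responsive transcription factor gene Creb1 stood at 5778 and 9032 against 4249 and 3916 (log2 fold change -0.82, SE 0.36). Prkacb, a catalytic subunit of protein kinase A, stood at 15387 and 7472 against 20806 and 15465 (0.74, SE 0.37). Hdac5, a histone deacetylase that PTH signalling controls, was at 6141 and 74.3 against 9359 and 10265, where cHet_1 was far below the other 3 libraries. The second receptor gene of the family, Pth2r, was at 0 in all 4 libraries.

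Genes that PTH or PTHrP induces or represses in bone cells were divided in direction. Of 28 listed, 20 could be tested, 7 with higher and 13 with lower values and 0 called, with a median log2 fold change of -0.29. The members Pthlh and Tnfsf11 are in this list, both with lower values. Bglap (osteocalcin, a late osteoblast product) was at 1940.9 and 1125 in cHet against 255 and 326 in cKO. Mef2c, a transcription factor gene through which PTH acts on Sost in osteocytes, was at 9537 and 15496 against 8326 and 8406. Efnb2, the ephrin B2 gene, was at 7908 and 8637 against 6271 and 5997, and Nfix at 35205 and 29903 against 45278 and 43059. The groups did not overlap for these 4 genes, and unadjusted limma p ranged from 0.0717 for Bglap to 0.177 for Efnb2. Ihh, the hedgehog ligand gene paired with PTHrP in growth plate cartilage, was at 0 in all 4 libraries.

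RANKL, encoded by Tnfsf11 (chromosome 14, 78277445 to 78308043, minus strand), was listed at 560.3 and 665 in cHet against 398 and 597 in cKO. The highest library was a cHet and the lowest a cKO, and the groups overlapped. Its log2 fold change was -0.32 (SE 1.24, 95% interval -3.18 to 2.53, adjusted p = 0.988 in limma). This wide interval comes mainly from limma's moderation toward genes of like abundance, since the libraries of a group differed by only 0.24 (cHet) and 0.58 (cKO) on the log2 scale. In FPKM it was low, at 3.97 and 1.42 in cHet against 2.75 and 1.61 in cKO, so that Tnfsf11 ranked between 9478 and 10433.

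Osteoprotegerin, encoded by Tnfrsf11b (chromosome 15, 54250619 to 54278484, minus strand), was listed at 1839.7 and 4149 in cHet against 92.7 and 1021 in cKO. Both cKO libraries lay below both cHet libraries, but the 2 cKO values were themselves 11.0-fold apart, more than the cHet values were (2.26-fold). The log2 fold change of -3.14 (SE 1.27, 95% interval -6.07 to -0.22) had an unadjusted limma p of 0.0383 and an adjusted p of 0.913. The libraries of a group differed by 1.17 (cHet) and 3.42 (cKO) on the log2 scale. Limma's moderation toward genes of like abundance made this SE and interval narrower than the gene's own values alone would give. At an unadjusted p under 0.05, 1.49% of all genes tested were lower. A fold change as low or lower was found for 192 of the 14297 genes, 1.34%. Leaving out 1 library cannot turn the direction where groups do not overlap, but it moved the size: the log2 fold change was -1.43 without cKO_0, -4.85 without cKO_1, -3.73 without cHet_0 and -2.56 without cHet_1. In these bulk libraries, fewer cells that make a transcript and less of it per cell cannot be told apart.

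**Figure D2:**
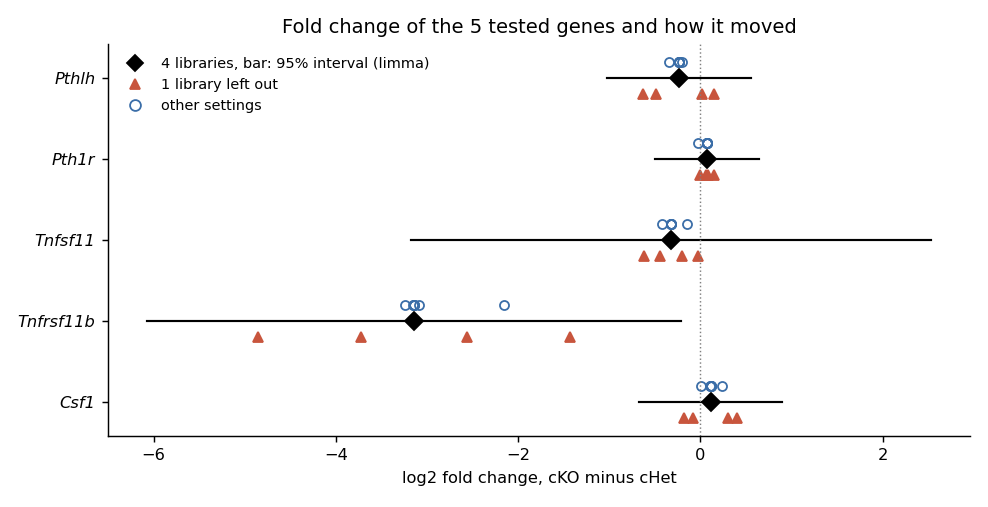
Log2 fold change, cKO minus cHet (horizontal axis), of the 5 genes tested (vertical axis); black diamonds are the values from all 4 libraries with limma's 95% interval, red triangles the values with 1 library left out, and open blue circles those under the other processing settings. The points of Tnfrsf11b all lie below 0, from -4.85 to -1.43, those of Tnfsf11 lie between -0.61 and -0.03, and those of Pthlh, Pth1r and Csf1 fall on both sides of 0.

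In FPKM, Tnfrsf11b stood at 9.82 and 6.99 in cHet against 0.48 and 1.96 in cKO, again without overlap. Of the 13047 genes that reached 0.5 FPKM in 2 or more libraries, 8.73% lay lower in cKO without overlap. FPKM values cannot be compared freely between all 4 libraries, because the number of scaled counts that made up 1 FPKM differed. For Tnfrsf11b it was 187 in cHet_0 and 193 in cKO_0, but 593 in cHet_1 and 521 in cKO_1. For Tnfsf11 it was 141 and 144 against 468 and 371, and for Pthlh 93.4 and 92.3 against 142 and 137. Pth1r went the other way, at 148 and 143 against 119 and 125. Columns with the same number thus shared their conversion, whatever the genotype. Compared only within such columns in scaled counts, Tnfrsf11b was 19.9-fold lower in cKO_0 than in cHet_0 and 4.06-fold lower in cKO_1 than in cHet_1. The same differences for Pthlh were 0.41 and -0.88 on the log2 scale, and for Tnfsf11 -0.49 and -0.15.

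**Figure D3:**
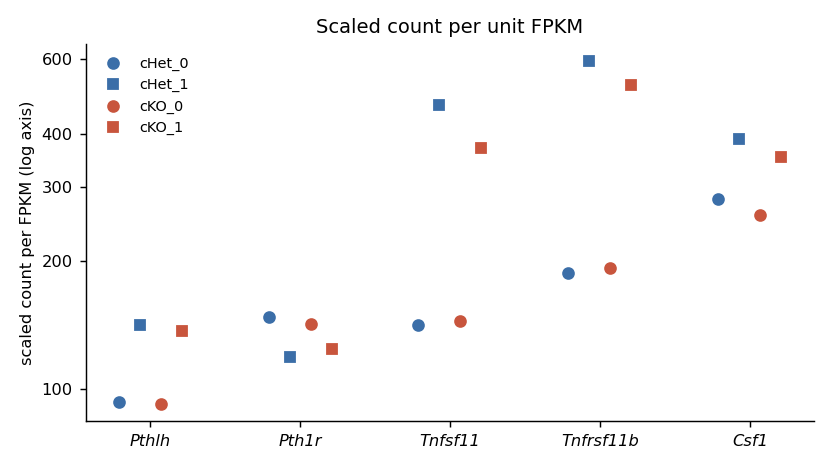
Scaled counts per unit of FPKM (vertical axis, log scale) of the 5 genes tested (horizontal axis); circles are columns numbered 0, squares columns numbered 1, blue cHet and red cKO. For each gene the circles lie together and apart from the squares, as at 187 and 193 against 593 and 521 for Tnfrsf11b.

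RANKL and osteoprotegerin were also set against each other within each library. The ratio of Tnfsf11 to Tnfrsf11b in FPKM was 0.404 in cHet_0, 0.203 in cHet_1, 5.73 in cKO_0 and 0.82 in cKO_1. The ratio was thus above 1 in cKO_0 and below 1 in the other 3 libraries, although both cKO values lay above both cHet values. On the log2(scaled count + 3) scale it was -2.17 ± 0.66 (SD, n = 2) in cHet and 0.65 ± 2.01 (SD, n = 2) in cKO, a difference of 2.82. By construction this is the log2 fold change of Tnfsf11 (-0.32) minus that of Tnfrsf11b (-3.14). Most of it thus restates the lower values of Tnfrsf11b and is not a separate result. An exact permutation test over libraries, two-sided, gave p = 0.333, the smallest that 2 libraries against 2 can give. The difference was 1.40 without cKO_0 and 4.24 without cKO_1.

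**Figure D4:**
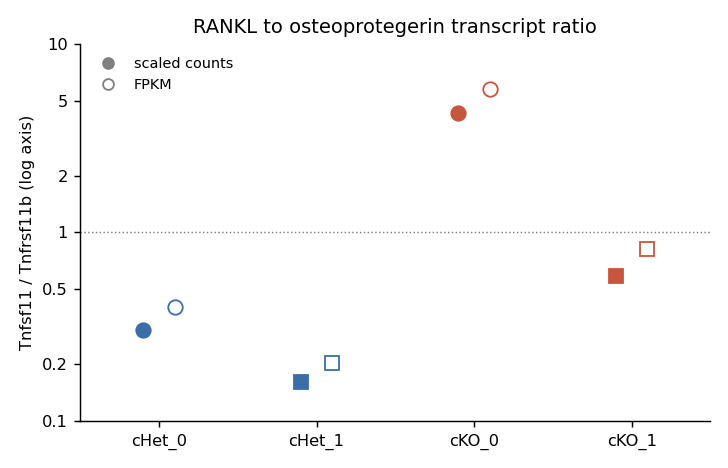
Ratio of Tnfsf11 (RANKL) to Tnfrsf11b (osteoprotegerin) transcripts (vertical axis, log scale) in each library (horizontal axis); filled symbols are ratios of scaled counts, open symbols of FPKM, blue cHet and red cKO, and the dotted line marks a ratio of 1. The cHet ratios in FPKM are 0.404 and 0.203, and the cKO ratios 5.73 and 0.82.

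Csf1, the ligand gene that recruits osteoclast precursors (chromosome 3, 107741048 to 107760469, minus strand), was listed at 5272 and 7842 in cHet against 7922 and 6081 in cKO. The lowest library was a cHet and the highest a cKO, with overlap between the groups. Its log2 fold change was 0.11 (SE 0.34, 95% interval -0.68 to 0.90, adjusted p = 0.981 in limma). It was -0.18 without cHet_0, -0.08 without cKO_0, 0.40 without cHet_1 and 0.30 without cKO_1. In FPKM, Csf1 stood at 18.7 and 20.1 against 30.8 and 17.2, in every library below Pthlh and Pth1r and above the other 3 genes.

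Il34, the other ligand gene of the same receptor (chromosome 8, 110741829 to 110805924, minus strand), was listed at 80.2 in cHet_0 and at 0 in cHet_1, cKO_0 and cKO_1. It was left out of the test for low values, and no fold is given for a value in 1 library. In cHet_0 its FPKM was 0.657. The transcripts of Csf1r ligands in these cells were thus nearly all Csf1.

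By mean FPKM over the 4 libraries the order was Pthlh (102), Pth1r (99.0), Csf1 (21.7), Tnfrsf11b (4.81), Tnfsf11 (2.44) and Il34 (0.164). Pthlh and Pth1r changed places with the column number, by which their conversion to FPKM differed too. Tnfrsf11b was above Tnfsf11 in 3 libraries and below it in cKO_0, so that neither pair of neighbours differed beyond its spread.

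The receptors of the ligands on osteoclast precursors were detected, but at levels that followed single libraries. Tnfrsf11a (RANK) was listed at 636 and 2596 in cHet against 1580.5 and 4470 in cKO, higher in the columns numbered 1. Csf1r was at 228 and 8.37 in cHet against 52.8 and 2151 in cKO, so that it was prominent in cKO_1 only. The late osteoclast fusion gene Dcstamp was at 266 in cKO_1 and at 0 in the other 3 libraries, and Ocstamp and the calcitonin receptor gene Calcr were at 0 in all 4. Of 31 genes of osteoclasts and their precursors, 23 could be tested, 11 with higher and 12 with lower values and 0 called (median log2 fold change -0.05). Mmp9, a matrix metalloproteinase of osteoclasts and of other cells, was at 2371 and 1731 against 7325 and 11833, with the lowest p of the list (log2 fold change 2.2, SE 0.41, adjusted p = 0.913 in limma). Ctsk, the collagen-degrading protease of osteoclasts, which fibroblasts make too, was abundant at 10706 and 18158 against 9508 and 13765.

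Of 18 receptors, coreceptors and proteases that bind or cut the members, 16 could be tested and 0 were called (median 0.07). Pth1r, itself a member, is in this list. Lgr4, which also binds RANKL, overlapped between groups at 5180 and 4074 against 4775 and 6355. Adam10, a sheddase that can release RANKL, stood at 9391 and 9355 in cHet against 5255 and 6474 in cKO (log2 fold change -0.68, SE 0.29). The proprotein convertase gene Pcsk5 stood at 9267 and 7283 against 15206 and 13141 (0.78, SE 0.27). Ptprz1, a receptor for IL-34, was at 2357 and 3855 against 1498 and 968.

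Known inducers of RANKL or regulators of osteoprotegerin showed no common direction: 26 of 31 could be tested, 11 with higher and 15 with lower values and 0 called (median -0.17). Tgfb1, a growth factor gene that raises osteoprotegerin in osteoblasts, was at 12359 and 10666 in cHet against 6639 and 8799 in cKO (log2 fold change -0.59, SE 0.29). Postn, a matrix protein gene of ligament and follicle, was at 90224 and 149828 against 55112 and 58964. The cytokine genes Il11 and Osm were low in every library and higher in cKO without overlap. Il11 was at 31.6 and 1.05 in cHet against 234 and 133 in cKO, and Osm at 25.9 and 0 against 107 and 378. The vitamin D receptor gene Vdr overlapped, at 1849 and 2351 against 849 and 5210.

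Among 39 other secreted factors that act on osteoclasts or their precursors, 28 could be tested, 16 with higher and 12 with lower values and 0 called (median 0.20). The chemokine gene Cxcl12, which attracts precursors, was at 12874 and 9025 in cHet against 26385 and 17566 in cKO (log2 fold change 0.998, SE 0.31). Slit3, a guidance factor gene, was at 16425 and 8747 against 34962 and 23135 (1.25, SE 0.36). The chemokine gene Ccl2, known from eruption studies, was low and uneven, at 21.9 and 446 against 2.15 and 45.4. Of 31 genes with a known part in eruption, which include 5 of the members, 30 could be tested, 14 with higher and 16 with lower values and 0 called (median -0.10). Apart from Tnfrsf11b and Mmp9, the lowest p there belonged to Dspp, the dentin matrix gene of odontoblasts, at 27937 and 69633 against 229 and 9251, and to the growth factor receptor gene Fgfr1, at 41217 and 39354 against 26228 and 26674. Dspp shared with Tnfrsf11b the order of the libraries, cHet_1 highest and cKO_0 lowest.

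**Figure D5:**
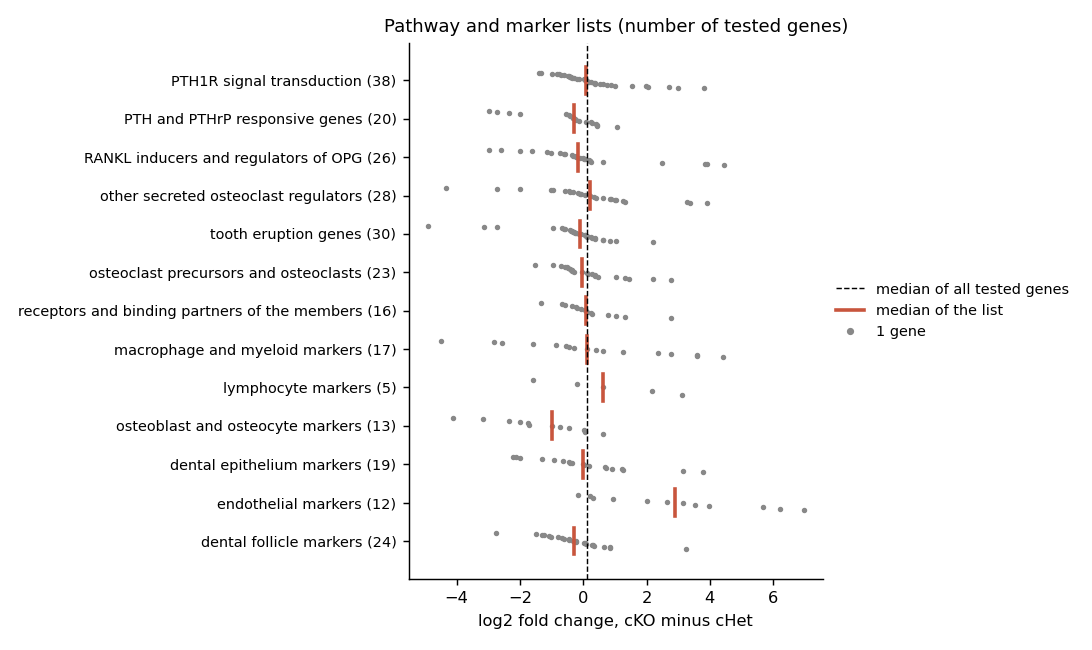
Log2 fold change, cKO minus cHet (horizontal axis), of the genes of each pathway or marker list (grey points, number tested in brackets), with the list's median in red and the median of all genes tested, 0.12, as a dashed line. The pathway medians lie between -0.29 and 0.20, while the osteoblast marker median is at -0.99 and the endothelial one at 2.91.

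Markers of other cells that could make these transcripts moved with the groups, with the column number or with single libraries. The summed FPKM values below carry the conversion that differed by column number, so columns of unlike number cannot be compared freely in them. Osteoblast and osteocyte markers, cells known to make osteoprotegerin and RANKL, had lower values for 9 of 13 tested genes (median -0.99, 0 called). Their summed FPKM was 13550 and 16225 in cHet against 8620 and 10505 in cKO. Most of that sum was the collagen gene Col1a1, at 11465 and 14757.5 against 6793 and 9159 FPKM, so that the sum mainly follows this gene. Groups did not overlap in the lower direction for 6 of the 13. Among these, Smpd3, a sphingomyelinase gene needed for bone mineralization, had the lowest p, at 44929 and 19766 against 11136 and 7455. Phex, a phosphate-regulating peptidase gene, stood at 2763 and 3653 against 95.9 and 339, and Bmp8a at 3266 and 2663 against 113 and 904. Their part in the lower Tnfrsf11b was not tested. Among the markers of highest FPKM, Ibsp overlapped between groups, at 86821 and 186558 against 141908 and 121729. Alpl was lower without overlap, at 109301 and 104405 against 64102 and 96330.

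Markers of dental epithelium, which is known to make PTHrP, were present in every library, although the sort for tdTomato would remove cells without that mark: the summed FPKM of its 20 markers was 8921 and 18742 in cHet against 14928 and 39196 in cKO, most of it from the enamel matrix genes Amelx and Ambn. Of 19 tested, 9 had higher and 10 lower values (0 called), and groups did not overlap for 1 higher and 3 lower. The higher one was Cldn1, a tight junction gene, at 7205 and 8981 against 10021 and 16586. Of the 3 lower ones, the transcription factor gene Sp6 was at 62019 and 42274 against 8564 and 19049.9, and Shh and Epcam stood at 6137 and 6738 against 649.7 and 2875, and at 4828 and 2448 against 621 and 1002. As for Tnfrsf11b, cKO_0 was the lowest library for all 3. Their part in the values of Pthlh and Tnfrsf11b was not tested. Among 24 markers of the dental follicle, the labelled tissue, were the members Pthlh and Pth1r. The summed FPKM of the 24 was 3983 and 2098 in cHet against 2930 and 1494 in cKO, and 0 of the 24 were at 0 in any library. Of these, 10 had higher and 14 lower values (median -0.29, 0 called), with 5 in each direction whose groups did not overlap. The lowest p among them belonged to the small proteoglycan genes Dcn, at 54343 and 46719 against 19594 and 23248, and Lum, at 189110 and 238954 against 109264 and 92464, while Bicc1, an RNA-binding protein gene, was higher at 15731 and 19243 against 28286 and 35241.

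Lymphocytes, a known source of RANKL, left little trace: 14 markers summed to 2.55 and 0.54 FPKM in cHet and 3.38 and 4.43 in cKO, and the T cell gene Cd3e was at 0 in all 4 libraries. The 18 myeloid markers summed to 27.4 and 112 FPKM in cHet and 19.8 and 156 in cKO, with the macrophage lysozyme gene Lyz2 the largest of them in every library, at 8.20 and 44.4 against 13.05 and 68.3. Single markers did not all share that order: Csf1r, Mrc1 and Itgam were lower in cHet_1 than in cHet_0, Mrc1 at 521 and 7.33 scaled counts and Itgam at 339 and 4.19. The general leukocyte gene Ptprc was at 0.81 and 0 against 62.5 and 76.0 scaled counts. Endothelial markers were higher in cKO for 11 of 12 tested genes (median 2.91, 0 called), at a summed FPKM of 25.2 and 42.9 against 40.7 and 87.0. Pecam1, which marks endothelium, was at 0 and 5.23 against 299.5 and 1278 scaled counts. The abundant markers differed less: Kdr was at 1900.4 and 4054 against 1944 and 3145, and Eng at 3692 and 4283 against 4428 and 5405. At a mean of at least 1000 only 2 markers were left, with a median of 0.066.

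Genes whose values ran most like those of a member were found by the Euclidean distance between log2 values centred over the 4 libraries, among those that averaged 1000 or more. For Tnfrsf11b the nearest of 8962 genes were Scube2 (distance 0.80), Coro2a (0.97) and Tspan15 (1.08). Scube2, whose product helps release hedgehog ligands from cells, was at 1401 and 5790.3 in cHet against 103 and 724 in cKO. The number of genes within a distance of 0.2 was 0 for Tnfrsf11b, against 70 for Pthlh, 243 for Pth1r, 63 for Tnfsf11 and 64 for Csf1. The log2 values were not scaled to a common spread, so a gene with large differences, such as Tnfrsf11b, has few near neighbours by this measure. These numbers therefore follow the size of the differences and do not show that a pattern is unusual. Nearest to Pthlh were 4930427A07Rik (0.03), Cpsf6 (0.07) and Mycbp2 (0.07), and nearest to Pth1r were Ctsc, Leprel2 and Dbnl (0.04 each). Nearest to Tnfsf11 were Vkorc1 (0.05), Kif3b (0.06) and Sec24c (0.07), and nearest to Csf1 were Kcnq1ot1 (0.04), Sirt1 (0.06) and Ankrd27 (0.07). With only 4 libraries such a likeness is a description.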

How the data were processed

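RNA of sorted tdTomato-positive dental follicle cells was measured in 4 libraries, made per the labels' protocols with a PicoPure kit, SMART-Seq v4 cDNA amplification and Nextera XT. The submitters' processing notes name build mm10, the aligners TopHat2 (2.0.13) and Bowtie2 (2.2.1), and FastQC, Cuffdiff, Cufflinks, DESeq2 and HTSeq, without saying which step each served. The sources used here do not say whether strand was used in counting.

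The main values are a signal unit deposited by the authors: gene counts divided by 1 factor per library. The authors also deposited FPKM values, relative to transcript length and library size, used for levels between genes and as an alternative. In 4 other tables, 16 per-sample columns have names found in no label, and these were left out. Since columns count from 0 and titles from 1, a column was tied to its group only.

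Limma (3.58.1, R 4.3.3), with its prior variance following abundance, was fitted to log2(scaled count + 3) of the 14297 genes that reached 10 in 2 or more libraries, with group as the only term, and was tested on simulated data. Changes of low genes are understated on this scale. P-values are two-sided. Gene lists (13 lists, 323 of 324 entries matched by symbol or synonym) are described by counts and medians. Named from each list were genes with non-overlapping groups and the lowest p (up to 4), for markers also those of highest FPKM (up to 3). Gnas, Pth2r, Ihh, Lgr4, Vdr, Ccl2, Ctsk, Tnfrsf11a, Csf1r, Dcstamp, Ocstamp, Calcr and Cd3e were named after their values were seen. The members and lists were chosen with earlier results of these data known. The alternatives were other scaling, pseudocounts and filters, FPKM, library weights, a replicate block and leaving out each library. Gene coordinates are from GENCODE vM21, 1-based. Scaled totals were close to each other after division by 1 factor per library, so they do not show how deeply each library was sequenced, which was not examined. Precision also depends on how far libraries of a group lie apart: the standard error of a log2 fold change had a median of 0.74.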

Additional observations from a re-analysis of the deposited data

How the results depend on the processing

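No member was called under any of the alternatives run (12 each for Pthlh, Pth1r, Tnfrsf11b and Csf1, and 11 for Tnfsf11, which was below the minimum mean of 1000). With all libraries, the adjusted limma p of Tnfrsf11b ran from 0.876 (minimum mean of 1000) upward. Since no gene at all was called from scaled counts with all libraries, this says nothing of stability. Leaving out a library leaves 1 in its group, which is then assumed to vary like the other group. Tnfrsf11b was negative in all 12, between -4.85 and -1.43, as was Tnfsf11 in all 11. These signs are no measure of stability. Filters, library weights and the replicate block leave a fold change as it was, and leaving out 1 library cannot turn that of Tnfrsf11b. Leaving out 1 library gave -0.63 to 0.15 for Pthlh, -0.0014 to 0.15 for Pth1r and -0.18 to 0.40 for Csf1, and median-of-ratios factors gave -0.029 for Pth1r. Those factors move the median of all genes from 0.12 to 0.02. The number of genes called was 2 higher and 3 lower with log2(FPKM + 1), and 0 to 1061 higher and 0 to 78 lower with 1 library left out. The cause was not tested for any of these.

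List medians moved to -0.0049 (RANKL and osteoprotegerin regulators, no filter), -0.034 (receptors and partners, median-of-ratios), 0.066 (endothelial, mean of at least 1000), and -0.39 and -0.21 (follicle, median-of-ratios and FPKM). With 1 library left out they ran from -0.11 to 0.17 (PTH1R signalling), -0.40 to 0.033 (PTH-responsive), -0.46 to 0.089 (RANKL and osteoprotegerin regulators), -0.16 to 0.29 (osteoclast), -2.04 to 2.10 (myeloid), -0.67 to 1.001 (lymphocyte), -2.15 to -0.24 (osteoblast), -1.04 to 1.04 (epithelium), 1.46 to 5.13 (endothelial) and -0.43 to 0.024 (follicle). No lymphocyte marker was left at a mean of at least 1000. The ratio of RANKL to osteoprotegerin has no value of its own for filters or library weights.

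With the column number as a replicate block, added after the data were seen, 0 genes were called and Tnfrsf11b had an unadjusted limma p of 0.0279 and an adjusted p of 0.922. In the planned settings with all libraries, its unadjusted limma p ran from 0.0304 (median-of-ratios factors) to 0.0617 (log2(FPKM + 1)). It was 0.0563 with a minimum mean of 1000, so that not every setting stayed under 0.05. The labels tie same-numbered columns by nothing but the number. These columns also share their conversion to FPKM; the sources used here do not say whether they shared a preparation or sequencing run, and the part of such a batch was not tested. Over 14297 genes, the difference between columns 0 and 1 in cHet correlated at 0.05 with that in cKO.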

Other observations

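The conversion from scaled counts to FPKM grouped the libraries by column number and not by genotype over the whole table. Among the 9452 genes that reached 100 scaled counts and lay above 0.5 FPKM in every library, the median number of scaled counts per FPKM was 190.3 in cHet_0, 191 in cKO_0, 329.7 in cHet_1 and 311 in cKO_1. The median absolute log2 difference between libraries in this conversion was 0.03 for cHet_0 and cKO_0 and 0.12 for cHet_1 and cKO_1, against 0.68 to 0.79 for the other pairs of libraries. The sources used here do not say how the authors set transcript lengths.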
